A study of Saccharomyces cerevisiae with 30 samples.

Results

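The genes described are those whose names place them in the mitochondrial ribosomal protein families MRPL, MRPS and RSM. Probe sets of the Affymetrix Yeast S98 array were taken where the annotation gave a single gene name that began with one of these prefixes followed by digits. This rule gave 55 probe sets for 54 genes, of 5656 genes with a probe set of their own: 34 *MRPL*, 9 *MRPS* and 11 *RSM* genes. After a filter on dim genes, 50 of the 54 were tested, 33 of the large subunit and 17 of the small subunit. *MRPL50*, *RSM22*, *RSM23* and *RSM25* fell under the filter, and *MRPL44* was the gene with more than 1 probe set.

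RNA was measured on 30 arrays, 1 sample each, from 4 strains of budding yeast. All were BY4742 cells of mating type alpha lacking the chromosomal *RAD7* gene and carrying a *HIS3* plasmid, pRS313, grown without histidine to late log phase. In pRAD7 the plasmid held wild-type *RAD7*, which served as the control. In psocs the plasmid gene carried point mutations within its SOCS box, a change that stops Rad4 from being ubiquitinated after UV. The pRAD7 *rad23*Δ and psocs *rad23*Δ strains carried the same plasmids with *RAD23* replaced by *URA3*. Each strain was sampled untreated and 15 min and 60 min after 100 J/m2 of UV, with 3 arrays in every pRAD7 and psocs group and 2 in every *rad23*Δ group. The question asked of the arrays was how Rad23 and Rad4 ubiquitination bear on transcription after UV. *RAD7* comes from a plasmid in all 4 strains, so none is an unmodified wild type.

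The yeast mitochondrial ribosome is built from RNAs encoded in mitochondrial DNA and from proteins that, apart from Var1, are encoded in the nucleus, made on cytosolic ribosomes and imported. It translates a small set of membrane proteins, most of them core subunits of the respiratory chain and the ATP synthase. Many of its proteins descend from those of bacterial ribosomes, while others are found in mitochondria alone. In budding yeast the genes of mitochondrial and of cytosolic ribosomal proteins are known to be regulated separately.

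The strain labels were checked on the altered genes. The *RAD23* signal as deposited was 605 to 1572 on the 18 arrays of the *RAD23* strains and 1.26 to 4.40 on the 12 *rad23*Δ arrays, and *URA3* ran the other way, at 0.762 to 9.78 against 241 to 614. *RAD7* read 242 to 1167 on the 15 arrays with the pRAD7 plasmid (median 449) and 17.4 to 54.2 on the 15 with the psocs plasmid (median 37.4), without overlap. The labels describe point mutations in psocs and no lower level. Why the *RAD7* signal was lower was not tested. In every comparison of the plasmids the mutations and the lower *RAD7* signal cannot be told apart. The alpha-cell genes *STE3* and *SAG1* read 1008 to 3318 and 2359 to 6746 over the 30 arrays. Of the a-cell genes, *STE2* and *BAR1* read at most 83.1 and 63.6, and the pheromone genes *MFA1* and *MFA2* at most 168 and 293. At 15 min the median of 10 stress genes against untreated pRAD7 was 1.03 and 1.08 on the log2 scale in 2 arrays, replicate 2 of pRAD7 *rad23*Δ and replicate 1 of psocs *rad23*Δ, and 3.15 to 4.09 in the other arrays at that time. Every result at 15 min in these strains rests on those arrays.

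Signals are given after centring each array on a common median, so they are relative to the other transcripts on the array. Changes are log2 ratios ± SE from limma, and a gene is called, and said to have risen or fallen, at a Benjamini-Hochberg adjusted p under 0.05 over the 4242 genes tested. Arrays have no read depth, so precision depends on how many there were. The median SE of a member's change after UV was 0.16 in pRAD7 and psocs and 0.19 in the *rad23*Δ strains. In these bulk samples a change in every cell and a larger change in some of the cells cannot be told apart.

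In the centred values the mitochondrial ribosomal protein genes lay slightly below the untreated level at 15 min and slightly above it at 60 min. The median of the 50 tested genes, taken in each array against the mean of untreated pRAD7, was -0.15, -0.32 and -0.31 in the 3 pRAD7 arrays at 15 min and 0.31, 0.11 and 0.20 at 60 min, on the log2 scale. The untreated pRAD7 arrays lay between -0.03 and 0.03, close to 0 because their own mean is the reference. The 3 times did not overlap on this measure. The plain member median, without that reference, was 8.485, 8.211 and 8.383 in the pRAD7 arrays at 60 min. The untreated arrays read 8.214, 8.222 and 8.214, so replicate 2 at 60 min then lay below them. In psocs the medians were -0.01, -0.27 and -0.23 at 15 min, and 0.18 to 0.25 at 60 min, against -0.03 to 0.10 untreated. Here 1 array at 15 min, the one at -0.01, lay within the untreated range. At 60 min the medians of the *rad23*Δ strains were 0.22 to 0.25 with pRAD7 and 0.21 to 0.24 with psocs. Their untreated arrays lay at 0.003 to 0.070 and 0.006 to 0.083 on the same reference. In these strains the rise depended on the scale. With quantile normalization their median changes from their own untreated arrays were 0.12 and 0.02, with 29 and 26 of 50 members above 0. As deposited they were 0.11 and 0.004, with 28 and 25 above 0. The cytosolic ribosomal protein genes are 80 genes for the ribosome that makes most cell protein. In the centred values they lay at -1.16 to -1.26 in pRAD7 and -0.24 to -0.29 in pRAD7 *rad23*Δ at 60 min. Among the 34 nuclear genes of the respiratory chain and ATP synthase, the partners of the proteins that mitochondrial ribosomes make, the pRAD7 medians were already 0.49 to 0.57 at 15 min.

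**Figure D1:**
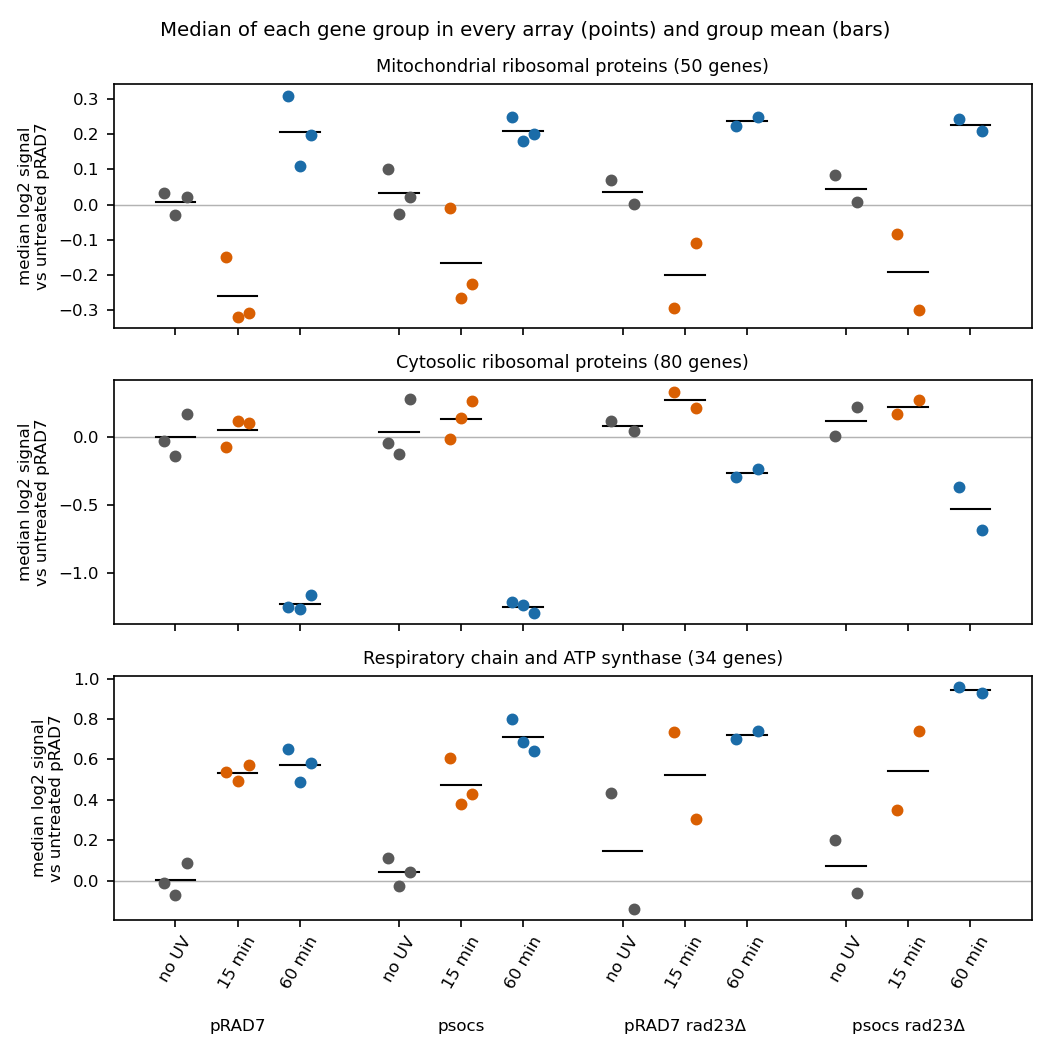
Median log2 signal of 3 gene groups in each of the 30 arrays (points), relative to the mean of untreated pRAD7, with the group mean as a bar. The x axis gives strain and time after UV. The mitochondrial ribosomal protein genes lie below 0 in all 10 arrays at 15 min and above 0.10 in all 10 arrays at 60 min, where the cytosolic ribosomal protein genes lie below 0. The y axes differ in range.

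At 15 min in pRAD7, 13 of the 50 genes fell and 1 rose. Of all 4242 genes 14.2% fell and 23.2% rose. The members were called lower more often than all genes and higher less often, a contrast that was not tested. The median change of the members was -0.28, against 0.08 for all genes. No array of the groups overlapped for 23 members that were lower and 3 that were higher, where the shares of all genes were 18.9% and 31.0%. The members that fell were *MRPL3*, *MRPL8*, *MRPL13*, *MRPL15*, *MRPL16*, *MRPL17*, *MRPL35*, *MRPL40* and *MRPL44* of the large subunit and *MRPS8*, *MRPS35*, *RSM26* and *RSM27* of the small subunit. The 14 calls became 9 without replicate 2 of the untreated arrays or of those at 15 min, and 8 without replicate 3 at 15 min. The call of *MRPL35* was lost in 5 of the fits that left out a single array. Those of *MRPL3*, *MRPL8*, *MRPS35* and *RSM26* were each lost in 4. In the values as deposited, without centring, 1 rose and 22 fell, where all genes split into 708 higher and 826 lower instead of 983 and 601.

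*MRPL40*, the counterpart of bacterial L24, a protein that binds early in large subunit assembly, changed the most of the 50 tested genes. Among the genes under the filter *RSM22* changed by -1.01. The *MRPL40* signals were 273, 286 and 333 in untreated pRAD7 and 190.3, 173 and 159 at 15 min, a change of -0.77 ± 0.15 (SE, limma adjusted p = 0.000468). All 3 arrays at 15 min were below every untreated array. *MRPL13*, a large subunit protein with no bacterial counterpart, read 427, 409 and 339.9 untreated and 235, 242 and 252 at 15 min, a change of -0.69 ± 0.14 (SE, limma adjusted p = 0.000693). *MRPL44*, also without a bacterial counterpart, went from 321, 315 and 289 to 197, 219 and 192, a change of -0.61 ± 0.12 (SE, limma adjusted p = 0.000481). In both genes the groups stood apart. *RSM27*, a small subunit protein found in mitochondria and not in bacteria, read 160.1, 155 and 119 untreated and 88.3, 106 and 90 at 15 min, a change of -0.60 ± 0.17 (SE, limma adjusted p = 0.00946).

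*MRPS12* was the only member called higher at 15 min in pRAD7. It encodes the counterpart of bacterial S12, the protein at the decoding centre of the small subunit, and had the highest mean signal of the 54 genes. The signals were 838, 742 and 906 in untreated pRAD7, 1286, 1206 and 1062 at 15 min and 1345, 1115 and 1187 at 60 min. Both UV groups lay above the untreated arrays, with changes of 0.52 ± 0.16 (SE, limma adjusted p = 0.0121) and 0.55 ± 0.16 (SE, limma adjusted p = 0.00337). The call at 15 min was lost without replicate 1 at 15 min or replicate 2 of the untreated arrays, and with quantile normalization. Its neighbour in the gene order, *RSM19*, the counterpart of bacterial S19, was not called at either time in pRAD7, at -0.27 ± 0.13 and 0.27 ± 0.13 with limma adjusted p of 0.11 and 0.0762. In psocs *MRPS12* was called higher at 60 min and not at 15 min. In the *rad23*Δ strains *MRPS12* was not called, with changes of 0.29 ± 0.19 and 0.20 ± 0.19 at the 2 times with pRAD7 and 0.43 ± 0.19 and 0.33 ± 0.19 with psocs. At neither time was its response in these strains called different from that in pRAD7.

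In psocs 12 members fell and 1 rose at 15 min, where 12.3% and 21.5% of all genes did. In pRAD7 *rad23*Δ 6 fell and none rose, beside 5.92% and 8.84% of all genes. In psocs *rad23*Δ 6 fell and 1 rose, beside 6.67% and 10.2%. As deposited, without centring, none rose and 11 fell there, and all genes split into 707 higher and 693 lower in psocs, 192 and 471 in pRAD7 *rad23*Δ and 220 and 418 in psocs *rad23*Δ, so that the larger share of all genes was lower in both *rad23*Δ strains. The calls in psocs became 7 without replicate 2 at 15 min and 8 without replicate 3 at 15 min or replicate 1 or 2 of the untreated arrays. Those in pRAD7 *rad23*Δ became 1 and 3 without replicates 1 and 2 of the untreated arrays and 2 without replicate 1 at 15 min. *MRPL13*, *MRPL17*, *MRPL40* and *MRPL44* fell in all 4 strains, which share no arrays, as did 4.24% of all genes. The *MRPL40* changes were -0.54 ± 0.15 in psocs, -0.73 ± 0.19 in pRAD7 *rad23*Δ and -0.63 ± 0.19 in psocs *rad23*Δ, with limma adjusted p of 0.00962, 0.0112 and 0.0246. *MRPL17*, a large subunit protein without a bacterial counterpart, changed by -0.45 ± 0.11 in pRAD7, -0.34 ± 0.11 in psocs, -0.59 ± 0.14 in pRAD7 *rad23*Δ and -0.43 ± 0.14 in psocs *rad23*Δ. The calls of all 4 genes in both *rad23*Δ strains were lost without single arrays, 2 or 3 of the 4 arrays in each case and any of the 4 for *MRPL17* in psocs *rad23*Δ, and all were lost when the compared groups were fitted alone. In psocs *MRPL17* was lost without any of 3 arrays (replicate 2 at 15 min, replicates 1 and 2 untreated) and *MRPL40* without replicate 3 at 15 min. In all, 20 of the 50 genes fell in at least 1 strain at 15 min, beside 16.9% of all genes, and 3 rose in 1 strain, beside 28.5% of all genes in at least 1: *MRPS12* in pRAD7, *MRPL28* in psocs (0.87 ± 0.21) and *MRPL38* in psocs *rad23*Δ.

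The largest fall at 15 min in any strain was that of *MRPL9*, the counterpart of bacterial L3, in psocs *rad23*Δ. Its signals there were 579 and 539 untreated and 278 and 261 at 15 min, a change of -1.05 ± 0.24 (SE, limma adjusted p = 0.0045). Both later arrays lay below both untreated arrays. The call was lost without replicate 2 at 15 min and when the compared groups were fitted alone. In pRAD7 *rad23*Δ the same gene changed by -0.14 ± 0.24 (limma adjusted p = 0.723). In psocs *MRPL9* also fell at 15 min, a call lost in 5 of the fits that left out a single array. In pRAD7 it was not called. Its signals there were 560, 508 and 466 untreated and 393, 399 and 406 at 15 min, without overlap. In no strain was its response at 15 min called different from that in pRAD7. *MRPL1*, the counterpart of bacterial L1, the protein of the ribosome's mobile stalk, fell in both *rad23*Δ strains, by 0.75 and 0.64 on the log2 scale, and was not called in pRAD7 (-0.22 ± 0.17) or psocs (-0.28 ± 0.17). The differences from pRAD7 were -0.53 ± 0.28 and -0.42 ± 0.28 and neither was called. The fall was lost without replicate 1 at 15 min or untreated in pRAD7 *rad23*Δ, without any of the 4 arrays in psocs *rad23*Δ, and in both when the compared groups were fitted alone.

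The 2 *rad23*Δ arrays with weak stress gene signals at 15 min had member medians of -0.11 and -0.08, against -0.30 in the other array of each of these groups. Without both arrays, 11 members were called at 15 min in psocs *rad23*Δ, where 7 were with them, and none was called when only replicate 2 at 15 min was left out of that strain. Without replicate 1 or 2 of its untreated arrays the count was 2 or 1.

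At 60 min in pRAD7, 12 of the 50 members rose and none fell. Of all genes 28.7% rose and 36.1% fell, so the share of members that rose was close to that of all genes, while no member fell. At an unadjusted p under 0.05 with limma 15 of 50 members and 2884 of 4242 genes were called. The median change was 0.16, against -0.11 for all genes. The arrays of the groups did not overlap for 21 members that were higher and for none that was lower, beside 30.8% and 39.9% of all genes. The members that rose were *MRPL6*, *MRPL15*, *MRPL16*, *MRPL22*, *MRPL24*, *MRPL25*, *MRPL28* and *MRPL31* of the large subunit and *MRPS5*, *MRPS12*, *MRPS16* and *MRPS28* of the small subunit. Without replicate 1 at 60 min, the array with the highest member median, 7 were called. The call of *MRPS5* was lost in 5 of the fits that left out a single array, and that of *MRPL31* in 4. As deposited, without centring, 30 members rose and none fell, where all genes split into 1669 higher and 1100 lower instead of 1219 and 1530.

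*MRPS28*, the counterpart of bacterial S15, a protein that binds the small subunit RNA early, rose the most. It read 275, 225 and 255 untreated and 372, 411 and 444 at 60 min, a change of 0.70 ± 0.18 (SE, limma adjusted p = 0.00173). *MRPS16*, the counterpart of bacterial S16, read 500.3, 513 and 560.3 and 754, 956 and 819, a change of 0.68 ± 0.14 (SE, limma adjusted p = 0.000186). In both genes every array at 60 min was above every untreated array. *MRPL6*, the counterpart of bacterial L6, read 262, 175 and 139 and 315, 269 and 308, a change of 0.68 ± 0.19 (SE, limma adjusted p = 0.00285), and its untreated arrays were spread widely. *MRPL28*, a mitochondrial large subunit protein, read 148, 113 and 152 and 244, 204 and 204, a change of 0.67 ± 0.21 (SE, limma adjusted p = 0.00919).

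Changes of *MRPL25*, *MRPL22* and *MRPL16* were smaller. *MRPL25*, without a bacterial counterpart, read 362, 309 and 374 untreated, 403, 349.6 and 330.2 at 15 min and 539, 519 and 481 at 60 min, so only the last group stood apart, with a change of 0.56 ± 0.13 (SE, limma adjusted p = 0.000631). *MRPL22*, the counterpart of bacterial L22, which lines the exit tunnel, read 105, 108 and 90.1 and 190.1, 119.8 and 126, a change of 0.50 ± 0.16 (SE, limma adjusted p = 0.00891) in which 1 array at 60 min, replicate 1, was far above the other two. Without that array the call was lost. *MRPL16*, the counterpart of bacterial L16, and *MRPL15*, a mitochondrial protein of the large subunit, were called in both directions. *MRPL16* read 185, 153 and 198 untreated, 133, 116 and 125 at 15 min and 251, 229 and 224 at 60 min, with changes of -0.51 ± 0.14 (SE, limma adjusted p = 0.00508) and 0.40 ± 0.14 (SE, limma adjusted p = 0.0133). *MRPL15* read 189, 174 and 174, then 145, 133 and 132, then 236, 213 and 213, with changes of -0.39 ± 0.12 and 0.31 ± 0.12. For these genes none of the 3 groups overlapped. The rise of *MRPL16* was lost without that same array or replicate 2 of the untreated arrays, and that of *MRPL28* without the latter. The fall of *MRPL15* was lost without replicate 3 at 15 min or replicate 1 untreated, and its rise without replicate 1 at 60 min or replicate 2 or 3 untreated. The comparisons at 15 min and 60 min share the untreated arrays.

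In psocs 15 members rose and none fell at 60 min, beside 30.8% and 34.0% of all genes. In pRAD7 *rad23*Δ 17 rose and 1 fell, beside 32.6% and 28.2%, and in psocs *rad23*Δ 14 rose and 3 fell, beside 31.2% and 28.8%. As deposited, without centring, 11 rose and 4 fell in pRAD7 *rad23*Δ, and with quantile normalization 10 rose and 2 fell. In psocs *rad23*Δ 9 rose and 3 fell as deposited and 12 rose and 4 fell with quantile normalization, where the median was 0.02 instead of 0.10. In psocs 25 members rose as deposited and none fell, beside 1640 and 1126 of all genes. The counts in pRAD7 *rad23*Δ became 10 without replicate 2 at 60 min or of the untreated arrays, and those in psocs *rad23*Δ became 10 without replicate 1 at either of these and 9 without replicate 2 of the untreated arrays. *MRPL16*, *MRPL22*, *MRPL25*, *MRPL28* and *MRPS16* rose in all 4 strains, as did 18.5% of all genes. The call of *MRPL22* was lost without any of 4 arrays in psocs and without replicate 1 at 60 min in pRAD7 *rad23*Δ, that of *MRPL16* without replicate 2 at 60 min or untreated in pRAD7 *rad23*Δ, and that of *MRPL28* without replicate 2 at 60 min in psocs *rad23*Δ. *MRPS16* read 683 and 536 untreated and 1361 and 1413 at 60 min in pRAD7 *rad23*Δ, a change of 1.20 ± 0.17 (SE, limma adjusted p = 3.06e-06), and 536 and 495 and 1090 and 979 in psocs *rad23*Δ, a change of 1.01 ± 0.17 (SE, limma adjusted p = 2.99e-05). The signals at 60 min in pRAD7 *rad23*Δ were above those of every other group. *MRPL28* changed by 0.88 ± 0.21 in psocs, 1.17 ± 0.26 in pRAD7 *rad23*Δ and 1.03 ± 0.26 in psocs *rad23*Δ. The falls were *MRPL35* in pRAD7 *rad23*Δ (-0.43 ± 0.18) and *MRPL20* (-0.56 ± 0.23), *MRPL44* (-0.35 ± 0.15) and *RSM26* (-0.45 ± 0.18) in psocs *rad23*Δ, 3 large subunit proteins and a small subunit protein with no bacterial counterparts. The calls of *MRPL35* and *MRPL44* were lost without any of their 4 arrays, and those of *MRPL20* and *RSM26* without either array at 60 min or replicate 1 untreated.

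**Figure D2:**
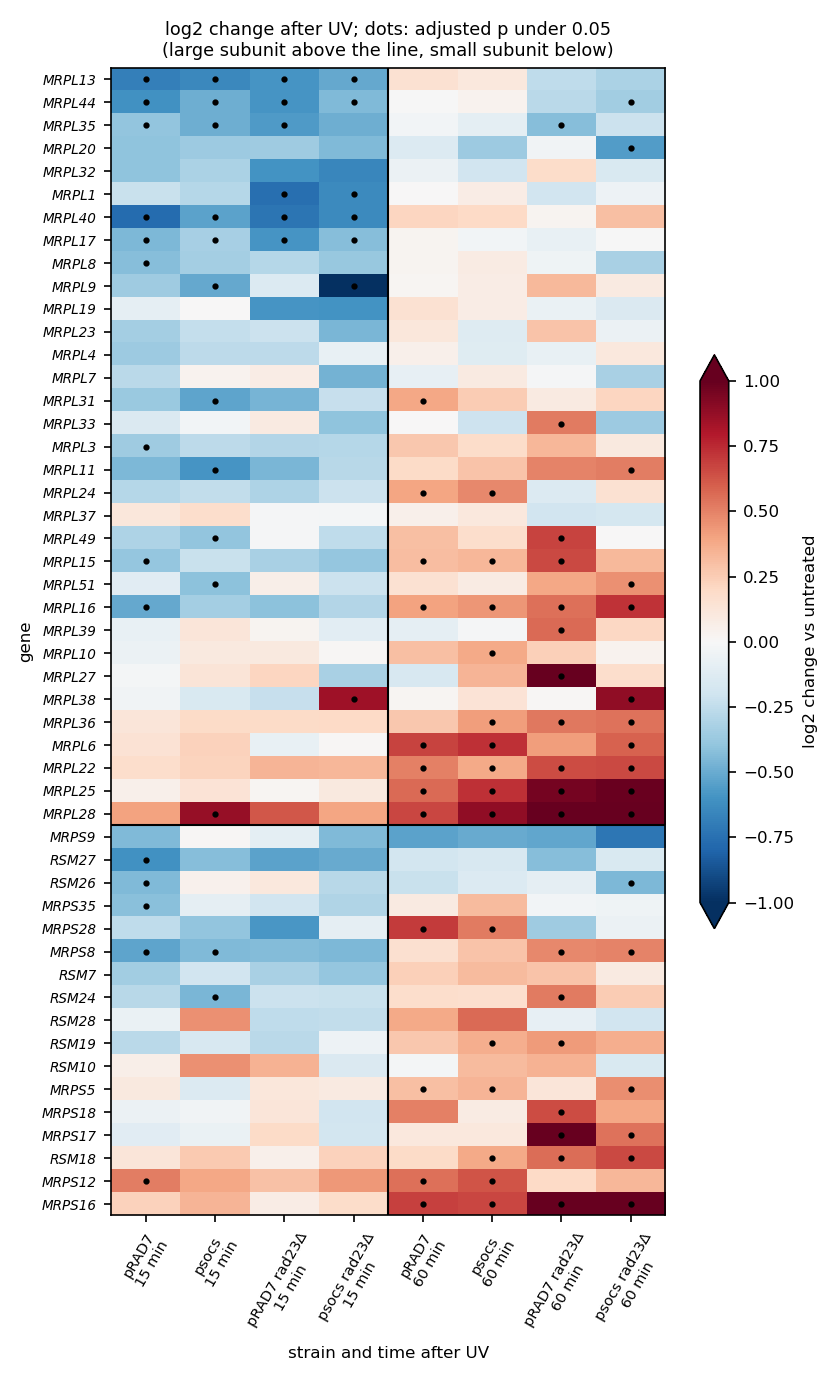
log2 change after UV (colour) of the 50 tested genes in each strain at 15 min and 60 min, with a dot where the limma adjusted p is under 0.05; rows are ordered by mean change within each subunit. Dots on the left lie mostly in blue cells and dots on the right mostly in red cells, with *MRPS12*, *MRPL28* and *MRPL38* as the genes called higher at 15 min.

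Between 15 min and 60 min the rise was called most often. In pRAD7 27 of the 50 members were higher at 60 min and none lower, beside 19.0% and 33.3% of all genes, and the median change was 0.42 against -0.13 for all genes. In psocs 24 were higher (background 22.2%), in pRAD7 *rad23*Δ 21 (20.5%) and in psocs *rad23*Δ 17 (19.5%), and none was lower, beside 32.1%, 24.0% and 24.3% of all genes. The groups did not overlap for 33 members that were higher in pRAD7, beside 25.7% of all genes. *MRPL11*, *MRPL15*, *MRPL16*, *MRPL17*, *MRPL25*, *MRPL40*, *MRPS8*, *RSM7* and *RSM19* rose in all 4 strains, as did 7.90% of all genes. In psocs *rad23*Δ the rises of *MRPL17* and *RSM7* were each lost without any of 3 arrays and that of *RSM19* without either of 2. *MRPL17* was also lost without any of 3 arrays in psocs, and *MRPL11*, *MRPL17* and *RSM7* without 1 array in pRAD7 *rad23*Δ. In pRAD7 *MRPL40* read 190.3, 173 and 159 at 15 min and 344, 346 and 340.1 at 60 min, a change of 0.98 ± 0.15 (SE, limma adjusted p = 1.51e-05). The corresponding changes of *RSM7*, the counterpart of bacterial S7, were 0.59 ± 0.14 in pRAD7, 0.51 ± 0.14 in psocs, 0.61 ± 0.17 in pRAD7 *rad23*Δ and 0.48 ± 0.17 in psocs *rad23*Δ, although that gene was called in no strain against the untreated arrays. *MRPS8*, the counterpart of bacterial S8, changed by 0.69 ± 0.16, 0.73 ± 0.16, 0.91 ± 0.20 and 0.95 ± 0.20 in the same order. Of the 50 members, 36 rose over this interval in at least 1 strain, beside 35.7% of all genes. Without replicate 3 at 15 min 17 members were called in pRAD7, without replicate 1 at 15 min 13 in pRAD7 *rad23*Δ, and without replicate 1 or 2 at 15 min 11 or 10 in psocs *rad23*Δ. As deposited, without centring, 45 members rose in pRAD7 and none fell, beside 1737 and 774 of all genes, so that all genes then split the other way. This interval shares its arrays with both earlier comparisons and adds no samples of its own.

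**Figure D3:**
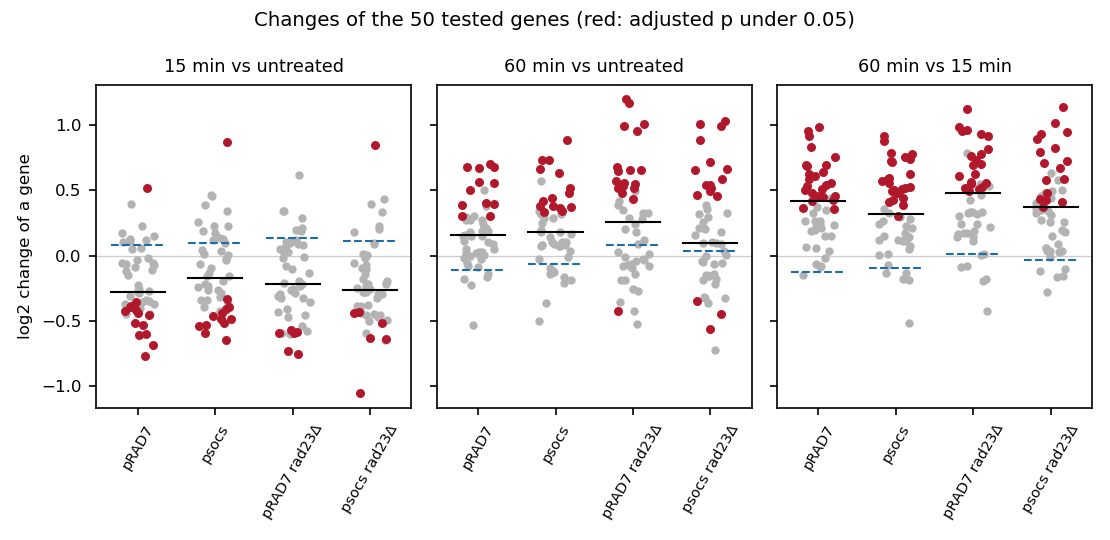
log2 change of each of the 50 tested genes (points; red where the limma adjusted p is under 0.05) by strain, at 15 min and 60 min against untreated and between the times. The black bar is the members' median and the dashed blue bar that of all 4242 tested genes: the black bar is below the blue one in all 4 strains at 15 min and above it in all 4 in the other panels.

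The strains were compared without UV and in their responses. No member was called between untreated psocs and pRAD7, where 1 of 50 members and 61 of 4242 genes had an unadjusted limma p under 0.05, nor in untreated pRAD7 *rad23*Δ (1 of 50 and 693 of 4242) or psocs *rad23*Δ (2 of 50 and 532 of 4242). Of all genes 0.0236% were called lower in psocs, 0.636% higher and 0.566% lower in pRAD7 *rad23*Δ, and 0.212% and 0.306% in psocs *rad23*Δ. The response of psocs differed from that of pRAD7 for no member at 15 min (1 of 50, and 37 of 4242 genes, at an unadjusted p under 0.05) or at 60 min (0 of 50, and 35 of 4242). The median SE of this difference was 0.22, and for *MRPL40* at 15 min its 95% interval ran from -0.22 to 0.68, around an estimate of 0.23. No gene of the 4242 was called in these comparisons or at 15 min in the *rad23*Δ strains. At 15 min no member's response was called different in the *rad23*Δ strains either, with 1 and 2 of 50 at an unadjusted p under 0.05, beside 144 and 143 of all genes.

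At 60 min 3 members responded differently in pRAD7 *rad23*Δ, 2 with a higher and 1 with a lower response, beside 18.6% and 11.4% of all genes. That split turned with the scale, to 1 higher and 4 lower with quantile normalization and to 0 and 10 as deposited, where all genes split into 296 higher and 1106 lower. *MRPS28* read 307 and 343 untreated and 215 and 298 at 60 min in pRAD7 *rad23*Δ, where it rose in pRAD7. The difference between the responses was -1.06 ± 0.29 (SE, limma adjusted p = 0.00776), and it was lost when replicate 1 of pRAD7 *rad23*Δ at 60 min was left out. *MRPS17*, the counterpart of bacterial S17, read 125 and 124 and 267 and 236 there, against 156, 152 and 154 and 176, 159.8 and 160.2 in pRAD7. Both *rad23*Δ arrays at 60 min lay above all pRAD7 arrays, and the difference was 0.91 ± 0.26 (SE, limma adjusted p = 0.0118), lost without the same array. *MRPL39*, the counterpart of bacterial L33, read 878 and 996 and 1320 and 1459, against 965, 1006 and 954 and 1109, 777 and 893 in pRAD7, a difference of 0.66 ± 0.22 (SE, limma adjusted p = 0.0257) that was lost when any of 3 arrays was left out (replicate 2 of pRAD7 at 60 min, replicate 2 of pRAD7 *rad23*Δ at 60 min and replicate 1 of that strain untreated). The calls of *MRPS17* and *MRPL39* were also lost without centring, at 0.49 and 0.24, and that of *MRPL39* with quantile normalization, at 0.37, whereas *MRPS28* was called under both scales.

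No member's response at 60 min was called different in psocs *rad23*Δ, where 7.50% of all genes were called higher and 3.77% lower and 4 of 50 members and 1068 of 4242 genes had an unadjusted p under 0.05. As deposited, without centring, 5 members were called lower, with a median of -0.46 instead of -0.09, beside 111 genes higher and 586 lower of all genes. In the centred values the differences ran from -0.76 ± 0.29 for *MRPS28* (limma adjusted p = 0.0913) to 0.86 ± 0.31 for *MRPL38* (limma adjusted p = 0.0761). *MRPL38*, the counterpart of bacterial L14, rose at both times in psocs *rad23*Δ and in no other strain. Its signals were 243 and 159 untreated, 367 and 342 at 15 min and 409 and 321 at 60 min, while the untreated arrays of the other 3 strains read 304, 322 and 329.7 in pRAD7, 436, 358 and 349 in psocs and 461 and 366 in pRAD7 *rad23*Δ. The untreated psocs *rad23*Δ arrays were thus the low ones, and the untreated difference from pRAD7 was -0.70 ± 0.22 (SE, limma adjusted p = 0.154). Both calls were lost without the lower of these arrays, replicate 2, and that at 15 min also without either array of that time or without centring.

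**Figure D4:**
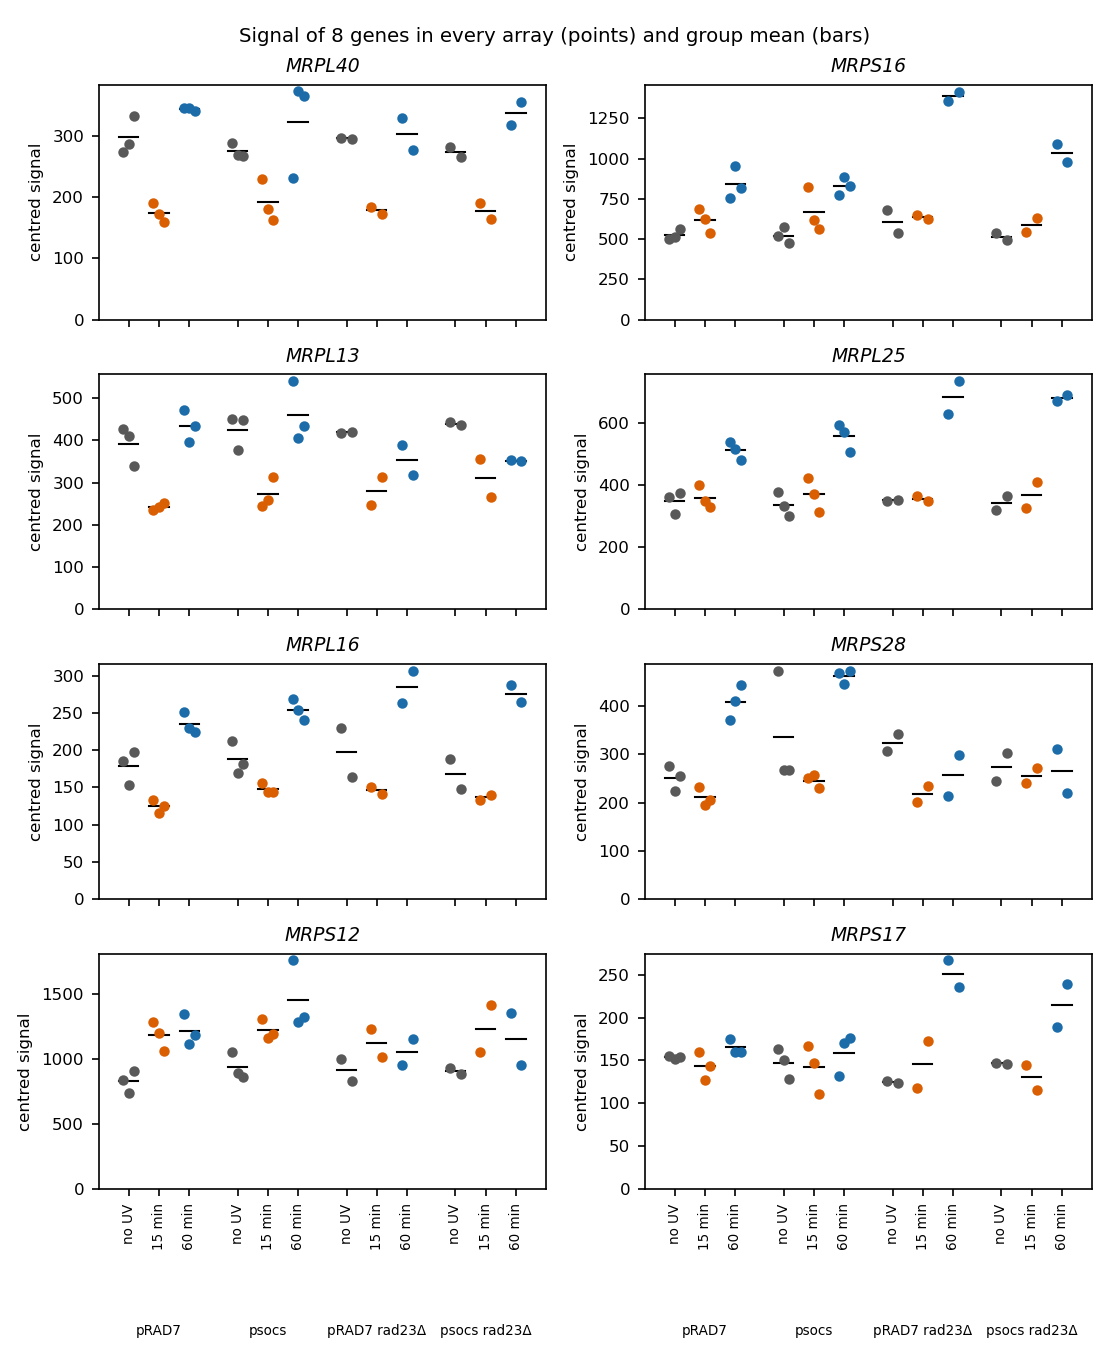
Centred signal of 8 genes (y axis, linear and from 0) in each of the 30 arrays (points) with the group mean (bar), by strain and time after UV. *MRPL40* and *MRPL13* are lowest at 15 min in all 4 strains except that the psocs rad23Δ range of *MRPL13* at 15 min includes its 60 min arrays; *MRPS28* was called higher at 60 min in pRAD7 and psocs, and *MRPS17* in the rad23Δ strains.

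The subunits were counted apart, with no test between them. Of all genes in pRAD7 14.2% fell and 23.2% rose at 15 min, and 28.7% rose at 60 min. At 15 min in pRAD7, 9 of 33 large subunit genes fell and none rose (median -0.31), and 4 of 17 small subunit genes fell and 1 rose (median -0.25). In psocs 10 of 33 large and 2 of 17 small subunit genes fell at 15 min, beside 12.3% of all genes. All 6 falls in each *rad23*Δ strain were of the large subunit, beside 5.92% of all genes with pRAD7 and 6.67% with psocs. The small subunit medians there were -0.10 with pRAD7 and -0.19 with psocs. That split depended on the scale. With quantile normalization 1 small subunit gene fell in each *rad23*Δ strain, and as deposited 4 fell with pRAD7 and 1 with psocs. At 60 min in pRAD7, 8 large subunit and 4 small subunit genes rose, with medians of 0.15 and 0.19. Genes with and without a bacterial counterpart were also counted: 4 of 32 with a counterpart fell at 15 min and 1 rose, against 9 of 18 without one. The medians were -0.24 and -0.38, and the difference between these sets was not tested. At 60 min 8 of 32 and 4 of 18 rose, with medians of 0.19 and 0.12. In pRAD7 *rad23*Δ the genes without a counterpart had medians of -0.28 at 15 min and -0.03 at 60 min, against -0.12 and 0.31 for those with one.

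The 4 genes left out as dim were fitted without the filter. *RSM22*, which encodes a methyltransferase-like protein of the small subunit, had the lowest mean signal of the 54 and fell at 15 min in all 4 strains, with changes of -1.01 ± 0.18 (SE, limma adjusted p = 0.000188) in pRAD7, -1.01 in psocs, -0.89 in pRAD7 *rad23*Δ and -0.81 in psocs *rad23*Δ. Its signals in pRAD7 were 72.3, 82 and 54.2 untreated and 43.2, 30.5 and 29.7 at 15 min, and these groups did not overlap. *RSM25* (-0.57) and *MRPL50* (-0.44), the counterpart of bacterial L9, fell at 15 min in pRAD7, and *RSM23*, a GTP-binding protein of the small subunit, fell in psocs (-0.73). *MRPL44* is given by its brighter probe set, since the other had a mean below the filter. *MRPL37* and *MRPL39*, next to *MRPS12* in mean signal, were called at neither time in pRAD7. For *MRPL37* the changes were 0.11 ± 0.13 and 0.05 ± 0.13.

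The other genes of mitochondrial translation were taken from lists of the pathway. For these lists, the shares of all genes in pRAD7 were 14.2% lower and 23.2% higher at 15 min. At 60 min they were 36.1% lower and 28.7% higher. The list counts were not tested against these shares. Of 25 further mitochondrial ribosomal proteins under other names, 22 were tested, of which 4 fell and none rose at 15 min in pRAD7 (median -0.09) and 7 rose and none fell at 60 min (median 0.13). *MRP13* and *MRP1* of the small subunit fell at 15 min, by 0.64 and 0.46 on the log2 scale, and *MHR1*, *MRP51* and *MRP49* rose at 60 min, by 0.62, 0.58 and 0.56. Between the times 11 of 22 rose and none fell, beside 19.0% and 33.3% of all genes.

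Translation factors and aminoacyl-tRNA synthetases had 13 of 26 genes tested, of which 5 fell and 1 rose at 15 min in pRAD7 and 6 rose and none fell at 60 min. *MEF1*, an elongation factor, changed by -1.09 ± 0.18 (SE, limma adjusted p = 6.69e-05) at 15 min. *MEF2*, the ribosome recycling factor related to it, changed by 1.93 ± 0.22 (SE, limma adjusted p = 6.77e-08) at 60 min, and *AIM23*, the initiation factor, by 1.36 ± 0.27 (SE, limma adjusted p = 0.000124). In pRAD7 *rad23*Δ 2 rose and 6 fell at 60 min, beside 32.6% and 28.2% of all genes. In psocs *rad23*Δ 3 rose and 5 fell, beside 31.2% and 28.8%. The psocs counts were 5 and 1, beside 30.8% and 34.0%. Differences between strains on this list were not tested.

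Of 11 genes for ribosome assembly and rRNA modification 8 were tested; 4 fell at 15 min in pRAD7, and 3 rose and 2 fell at 60 min. *AFG3* and *YTA12*, the subunits of the protease that matures Mrpl32 before large subunit assembly, rose at 60 min by 0.65 and 0.60, and the GTPase gene *MTG1* by 0.90. *MRPL32* itself was not called in pRAD7, at -0.40 ± 0.19 and -0.06 ± 0.19. *MRM1*, an rRNA methyltransferase, fell by 0.70 on the log2 scale at 60 min.

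Translational activators and membrane tethers had 13 of 20 genes tested, with 4 that fell and 1 that rose at 15 min and 4 that rose and 1 that fell at 60 min in pRAD7. *MSS51* and *PET54*, activators of cytochrome oxidase subunits, rose by 0.88 and 0.87 at 60 min, and *OXA1*, the insertase that takes up newly made membrane proteins, fell by 0.55 on the log2 scale. All 5 tested genes of mitochondrial transcription and RNA decay, of 7, fell at 15 min in pRAD7. *SUV3*, the helicase of the mitochondrial degradosome, changed by -1.40 ± 0.21 (SE, limma adjusted p = 1.88e-05) and *RPO41*, the mitochondrial RNA polymerase, by -1.14 ± 0.17 (SE, limma adjusted p = 1.88e-05). None of the 5 rose against untreated at 60 min, where 3 fell.

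The nuclear genes of the respiratory chain and the ATP synthase lay higher already at 15 min. In pRAD7 19 of 34 rose and none fell at 15 min (median 0.52), and 23 rose and none fell at 60 min (median 0.54). Of all genes 23.2% and 28.7% rose. With quantile normalization 12 rose and 2 fell at 15 min (median 0.30), and 27 rose and none fell at 60 min (median 0.75). As deposited, without centring, the medians were 0.40 and 0.81. The median change between the times was 0.43 on each of these other scales. *SDH2*, a succinate dehydrogenase subunit, changed by 1.40 ± 0.33 and 2.43 ± 0.33, and *CYT1*, cytochrome c1, by 1.10 ± 0.28 and 1.79 ± 0.28. The cytosolic ribosomal protein genes had 3 of 80 called lower at 15 min and 79 at 60 min in pRAD7 (median -1.25), and many of them are near-identical pairs whose probes may not tell them apart. At 60 min 79 were lower in psocs, 36 in pRAD7 *rad23*Δ and 56 in psocs *rad23*Δ, with medians of -1.24, -0.32 and -0.67. With quantile normalization the medians lay closer together, at -0.68 in pRAD7, -0.79 in psocs, -0.38 in pRAD7 *rad23*Δ and -0.61 in psocs *rad23*Δ, and 70, 72, 44 and 55 genes were lower. The mitochondrial members had medians of 0.16, 0.18, 0.26 and 0.10 in the 4 strains at that time.

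The members did not all follow their common pattern. Over the 12 group means the correlation of a member with the median of all members ran from -0.38 to 0.95 with a median of 0.69, and 24 of 50 had an r over 0.7, as did 4.74% of all tested genes. The lowest values were those of *MRPS9*, the counterpart of bacterial S9, and *MRPL37*. Each member is part of the median it is set against, and the points share their arrays. The genes outside the family closest to this median by the same measure were *RAD52* (r = 0.97), of recombinational repair, *SLM3* (0.96), a mitochondrial tRNA-modifying enzyme, *BDF1* (0.96) and *BDF2* (0.96), chromatin proteins of transcription initiation, *MFT1* (0.96), of mRNA export, *TOA1* (0.94), of the general factor TFIIA, and *MAS1* (0.94), a subunit of the mitochondrial processing protease, followed by *LCB5*, *CSM1* and *JSN1* (all 0.93).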

How the data were processed

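Transcript levels were measured on 30 Affymetrix Yeast S98 arrays, 1 RNA sample each, in 12 groups. The deposited intensities were MAS5 signals, which the authors scaled per array to a trimmed mean (500.3 to 500.5 over the middle 96% of values). The submitters' processing notes gave the tools. Their versions were not given in the sources used here. Of 9335 probe sets, 6504 had 1 gene name, and the brightest of each gene was kept (5656 genes). Values below the 10th percentile (8.50) were set to it, log2 was taken, and array medians were made equal, shifting an array by -0.33 to 0.13. A filter on mean log2 at the 25th percentile (6.53) left 4242 genes. Group means over all 30 arrays were fitted by linear models (limma 3.58.1, R 4.3.3, trended eBayes) with Benjamini-Hochberg adjustment within each of 21 comparisons. A difference between responses is an interaction term. The fit was tested on simulated data. Plots used Python 3.11.15 and matplotlib 3.10.9.

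The labels call the replicates biological but do not say whether they were separate cultures, and the spread behind the p-values may be technical. The members and lists were chosen with earlier results of these data known. Named genes were those called with the largest changes in pRAD7 (8 each way at 60 min, 4 each way at 15 min), those called between strains, the 3 brightest and 3 dimmest, dim genes, the gene with several probe sets, genes called in all 4 strains or in few, up to 4 per list and direction, and the 10 genes most like the members' median over 12 groups; others were named after their values were seen. Gene names came from the platform annotation, brought to current symbols. Alternatives were other filters, no floor, no centring, quantile normalization, single probe sets, the compared groups fitted alone, a replicate block, and each array left out; added after seeing the data were a block within strain and a fit without 2 arrays. No sequences were used here.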

Additional observations from a re-analysis of the deposited data

Results flagged for a closer look

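For 3 genes the response at 60 min differed between pRAD7 *rad23*Δ and pRAD7 by the interaction term of the fit over all 4242 genes. The values were -1.06 for *MRPS28*, 0.91 for *MRPS17* and 0.66 for *MRPL39* on the log2 scale, with limma adjusted p of 0.00776, 0.0118 and 0.0257. Of all genes 18.6% were called higher and 11.4% lower in that comparison. Groups held 2 or 3 arrays, too few for a test of single outlying arrays.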

How the results depend on the processing

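Over all tested genes, the median without centring was shifted by -0.12 at 15 min and by 0.27 at 60 min for pRAD7. For psocs the shift at 60 min was 0.20, for pRAD7 *rad23*Δ it was -0.18 and then -0.15, and for psocs *rad23*Δ it was -0.14 at 15 min. On those values the members called became 23, 30 and 45 in pRAD7 at 15 min, 60 min and between the times, 25 in psocs at 60 min, 15 and 11 in pRAD7 *rad23*Δ and psocs *rad23*Δ at 15 min, and 10 and 5 for the differences in response at 60 min of these strains from pRAD7. The members' medians became -0.39, 0.43 and 0.81 in pRAD7, -0.27, 0.38 and 0.61 in psocs, -0.39 and 0.11 in pRAD7 *rad23*Δ and -0.41 and 0.0041 in psocs *rad23*Δ (15 min, 60 min and, for the first pair of strains, between the times), and -0.33 and -0.46 for the differences in response at 60 min. With quantile normalization 5 members were called in the response of pRAD7 *rad23*Δ at 60 min, and the medians became 0.12 at 60 min in pRAD7 *rad23*Δ, 0.51 between the times in pRAD7 and -0.0050 for that response. A filter at the 50th percentile, which tests fewer members, left 9 called at 15 min in pRAD7, 11 at 60 min in each *rad23*Δ strain and 11 between the times in psocs *rad23*Δ. Fitting only the groups compared left 5 at 15 min in psocs, 0 at 15 min in either *rad23*Δ strain and 8 between the times in psocs *rad23*Δ; the fit then has fewer arrays to estimate the spread. Without both *rad23*Δ arrays with weak stress gene signals, 11 were called at 15 min in psocs *rad23*Δ, the medians between the times were 0.58 and 0.47 in pRAD7 *rad23*Δ and psocs *rad23*Δ, and that of the response of pRAD7 *rad23*Δ at 15 min was -0.052. The causes of these moves were otherwise not tested. No filter, no floor and each probe set on its own moved none of the 42 counts and medians past a set tolerance. For a median it was 0.086, the spread of array medians within groups. Smaller changes are not listed here. Without the filter 10 of the 194 single calls were lost.

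Samples with the same replicate number did not deviate together in most pairs. Within a strain the correlation of deviations was over 0.1 in 12 of 30 pairs, with a median of 0.05 and a range of -0.34 to 0.51. However, 19 of 30 arrays were closest to one of their own number, so whether the numbers mark shared replicates was not settled. The replicate block lost 8 of the 194 single calls. With it 1 member was called for the response of psocs *rad23*Δ at 60 min, and no other count or median moved past the tolerance given above. A block within strain gave 1 call there, 1 in untreated psocs *rad23*Δ and a median of -0.10 in untreated psocs.

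Leaving out single arrays gave 8 to 13 calls at 15 min and 7 to 12 at 60 min in pRAD7, 7 to 14 and 10 to 15 in psocs, 1 to 6 and 10 to 12 in pRAD7 *rad23*Δ, and 0 to 10 and 9 to 12 in psocs *rad23*Δ. Between the times the counts were 17 to 26, 18 to 25, 13 to 20 and 10 to 14 in the same order. For the responses at 60 min they were 1 to 3 in pRAD7 *rad23*Δ (1 without its replicate 1 at 60 min) and 0 to 1 in psocs *rad23*Δ. The medians that moved ran from -0.34 to -0.15 and from 0.097 to 0.19 in psocs *rad23*Δ at 15 min and 60 min, from 0.28 to 0.42, 0.30 to 0.58 and 0.31 to 0.47 between the times in psocs, pRAD7 *rad23*Δ and psocs *rad23*Δ, and from -0.052 to 0.097 and 0.0052 to 0.20 for the response of pRAD7 *rad23*Δ at 15 min and 60 min. Of the 194 single calls, held by 45 members, none changed sign; over the fits without an array 704 were kept and 300 lost. With 2 or 3 arrays a group, single calls near the threshold are uncertain, and an array left out of a *rad23*Δ group leaves 1, assumed to vary like the others.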

Other observations

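A few members, chosen after their values were seen, varied more between arrays of a group than the rest. Over the 54 genes and 12 groups, 648 cases in all, the highest array was a median of 1.18 times the lowest, and 17 cases were over 2-fold. Most of these were *MRPL7*, *MRPS9*, *MRPL27* and *RSM10*, the counterparts of bacterial L5 and S9, a mitochondrial large subunit protein and the counterpart of bacterial S10. In untreated psocs *MRPL7* read 67.7, 242 and 296 and *RSM10* read 76.3, 287 and 310.5, with replicate 1 the low array in both. In untreated pRAD7 *rad23*Δ *MRPL7* read 110.2 and 361 and *MRPS9* read 182 and 418, again with replicate 1 low. In pRAD7 at 60 min *MRPS9* read 464, 171 and 371 and *MRPL27* read 330.0, 158 and 338, with replicate 2 low in both. Over the 30 arrays the deviations of these 4 genes from their group means correlated with each other at r of 0.80 to 0.92, a description of genes picked for their spread. *MRPS9*, *MRPL7* and *RSM10* were called in none of the 8 comparisons with untreated arrays, and *MRPL27* in 1 (pRAD7 *rad23*Δ at 60 min, 1.00 ± 0.43 (SE, limma adjusted p = 0.0488)), a call lost without centring and with quantile normalization.

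Across genes, the change at 15 min in pRAD7 had a Spearman correlation of -0.26 with coding length over the 50 members and of -0.36 over all 4242 genes. At 60 min the values were 0.06 and -0.16 in pRAD7 and -0.32 and -0.47 in pRAD7 *rad23*Δ. Genes are not independent replicates, and the points share their arrays.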
